A study of Mus musculus with 8 samples.

Results

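The DNA methylation of 10 genes of the somatic cells of the testis, *Sox9*, *Amh*, *Wt1*, *Gata4*, *Fshr*, *Cyp17a1*, *Cyp11a1*, *Star*, *Insl3* and *Nr5a1*, was read in a cell fraction labelled type A spermatogonia. The genes were listed by name as genes of Sertoli and Leydig cells, and their cytosines were taken from 2000 bases upstream of the transcription start to the end of the gene in the RefSeq annotation of mm10. They held 885 covered cytosines of 2130064 in the table, and the 10 genes were part of 26179 annotated genes. Pregnant C3H/HeN mice received tap water (control group) or water with 85 ppm sodium arsenite (arsenic group) from gestational day 8 to 18. Exposure ended before birth, and the testes of the F1 sons were collected at postnatal day 6. Cells were separated on magnetic beads with an antibody against CD49f (Itga6), an integrin that other cells of the tubule also carry. Testes were pooled, 8 testes of 4 mice per sample, giving 4 control and 4 arsenic samples, and reduced representation bisulfite sequencing (RRBS) gave the share of methylated reads at each cytosine. Nothing in the labels ties the pools to litters, so the spread between samples is the spread between pools.

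Sertoli cells nurse the germ cells inside the seminiferous tubule, and Leydig cells make androgens between the tubules. Promoters rich in CpGs are mostly free of methylation whether or not the gene is transcribed, whereas promoters with few CpGs are often methylated in cells that do not use them. In male germ cells genome-wide methylation is laid down from late fetal life into the early postnatal period. Promoters of a class of germ cell genes are methylated in somatic cells and unmethylated in germ cells. In a pool of cells a level between the extremes can come from a mixture of cell types or from partial methylation within one type, and these cannot be told apart here.

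The following sequences are the reference sequences of the sites on which the results below turn, printed from 5′ to 3′ on the strand of the gene, from RefSeq (GRCm38.p6, that is mm10). CpGs with a covered cytosine are in capitals. The promoters of *Fshr* (chr17:89200626-89200925, minus strand) and *Cyp11a1* (chr9:57997774-57998073, plus strand) are shown because they are a partly methylated and an almost unmethylated promoter of low to moderate CpG content. The 2 differentially methylated cytosines (DMCs), in intron 2 of *Gata4* (chr14:63233931-63233972, minus strand) and in intron 2 of *Cyp11a1* (chr9:58010623-58010664, plus strand), lie at the first capitals of their lines. A CpG of *Gata4* intron 6 (chr14:63201287-63201328, minus strand) is the site with the largest drop among those at which the groups did not overlap. A stretch of exon 5 of *Amh* (chr10:80807222-80807394, plus strand) is the densest covered stretch of that gene.
Fshr promoter: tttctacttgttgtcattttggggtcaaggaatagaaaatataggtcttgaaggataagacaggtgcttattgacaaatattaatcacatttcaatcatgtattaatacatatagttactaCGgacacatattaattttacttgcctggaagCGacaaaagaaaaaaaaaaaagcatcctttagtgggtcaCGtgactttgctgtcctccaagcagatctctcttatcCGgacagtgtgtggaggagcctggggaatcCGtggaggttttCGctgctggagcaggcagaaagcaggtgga
Cyp11a1 promoter: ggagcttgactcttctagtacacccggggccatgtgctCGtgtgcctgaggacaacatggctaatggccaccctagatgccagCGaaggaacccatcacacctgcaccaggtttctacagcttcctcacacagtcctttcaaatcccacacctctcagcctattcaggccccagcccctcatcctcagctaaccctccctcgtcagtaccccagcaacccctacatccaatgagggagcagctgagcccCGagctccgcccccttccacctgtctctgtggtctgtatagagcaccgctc
Gata4 hypoDMC: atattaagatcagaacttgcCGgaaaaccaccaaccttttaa
Cyp11a1 hyperDMC: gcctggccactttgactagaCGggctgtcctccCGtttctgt
Gata4 intron 6 CpG: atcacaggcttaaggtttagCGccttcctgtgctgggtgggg
Amh exon 5: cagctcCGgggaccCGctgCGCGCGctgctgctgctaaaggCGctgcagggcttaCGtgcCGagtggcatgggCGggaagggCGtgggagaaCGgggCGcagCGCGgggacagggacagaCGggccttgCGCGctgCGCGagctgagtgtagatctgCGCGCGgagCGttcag

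The samples held 96428439 to 133406260 methylation calls, the coverage summed over cytosines, in which a read counts once at each cytosine it crosses. Of these calls 30296 to 45009 lay on the 10 genes. The average methylation level of all CpGs was 54.1% to 54.3% in the control group and 53.6% to 54.0% in the arsenic group. Promoter methylation of germ cell and imprinted genes went against the labelled cell type. The promoters of a list of spermatogonial genes were mostly low, but so were those of the lists of Sertoli and Leydig cell genes given below. Marker expression was not analysed here. Of 14 promoters of germ cell genes 11 were covered, and their mean level was 82.4%, with 9 above 80% and none below 20%. They ranged from *Tdrd1*, a gene of transposon silencing, at 60.2% to *Dazl*, an RNA-binding protein of germ cells, at 94.9%, while the germ cell helicase *Ddx4* stood at 80.2%. Sample means over these promoters ran from 80.7% to 84.8% in the control group and from 81.9% to 83.2% in the arsenic group, so the groups overlapped. The 6 covered of 11 maternally imprinted promoters, which are free of methylation in male germ cells, had a mean of 60.9%, from *Zrsr1* at 53.4% to *Mest* at 76.7%, and sample means of 55.6% to 68.8%. The fraction is therefore called here by its label, and the part of somatic cells in each level below was not tested.

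Promoters ran from 1000 bases upstream to 100 bases downstream of the outermost annotated start of a gene, and at least 3 covered cytosines were required. Of the 10 genes, 6 had a covered promoter, and their median level was 2.27%. The median over all 11972 covered promoters was 1.80%. Other Sertoli cell genes had 9 of 18 promoters covered with a median of 1.66%, from *Kitl*, the ligand of the Kit receptor, at 0.623% to *Ptgds*, a prostaglandin synthase, at 32.0%. Other Leydig cell and steroid hormone genes had 5 of 12 covered with a median of 1.88%. They ran from *Fdxr*, the ferredoxin reductase of steroid synthesis, at 1.09% to *Tspo*, a protein of the outer mitochondrial membrane, at 40.3%. Genes of spermatogonia had 6 of 8 covered with a median of 2.75%, from *Uchl1*, a ubiquitin hydrolase, at 1.05% to *Stra8*, a gene induced by retinoic acid, at 83.5%. Peritubular myoid cell genes had 3 of 5 covered, from *Myh11*, the smooth muscle myosin, at 1.40% to *Des*, an intermediate filament protein, at 16.6%, with a median of 13.4%. Endothelial genes had 3 of 5 covered, from the receptor *Kdr* at 5.18% to the adhesion molecule *Pecam1* at 92.8%, with a median of 53.2%, and none of the 5 macrophage promoters was covered. A low promoter level was thus shared by most lists, including that of spermatogonia. In these lists, as among all 11972 promoters, limma called none at an adjusted p of at most 0.05. The groups did not overlap at 1 promoter of the other Sertoli cell genes (higher in the arsenic group) and at 1 each of the other Leydig cell genes and the endothelial genes (lower). Over all 11972 promoters they did not overlap at 2.97% (1.69% lower and 1.28% higher in the arsenic group). In lists this short, 1 such promoter is not a result about the list.

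**Figure D1:**
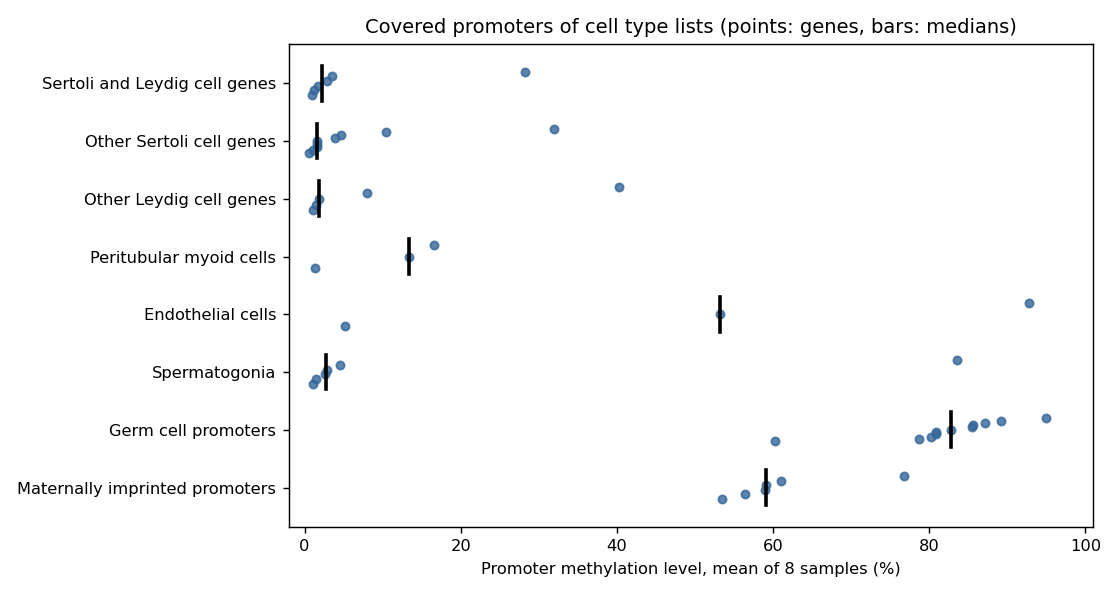
Promoter methylation level (%, mean of 8 samples) of each covered gene (points) in 8 lists, with the median of each list (bars). The 6 covered promoters of the 10 Sertoli and Leydig cell genes read here lie at 0.990% to 28.2%, and the germ cell promoters lie at 60.2% to 94.9%.

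*Sox9*, the transcription factor that sets Sertoli cell fate, was almost free of methylation over its whole covered length, with all 102 cytosines below 10%. Its promoter (chr11:112781210-112782310) held 46 covered cytosines and stood at 0.880%, 1.42%, 2.37% and 0.665% in the control samples and at 0.229%, 0.998%, 0.639% and 2.38% in the arsenic samples. The groups overlapped widely, with an exact permutation p of 0.657 (two-sided, n = 4 and 4). The median over 2995 promoters with a like number of CpGs (within 20%) was 1.44%. The gene body, the rest of the gene after the promoter window, stood at 0.704%, 0.642%, 0.510% and 0.677% in the control group and at 0.970%, 1.25%, 1.33% and 0.969% in the arsenic group. Each arsenic sample was higher than each control sample, by 0.496 percentage points in the mean (0.633% ± 0.0860 against 1.13% ± 0.188, SD, n = 4 each, exact permutation p = 0.0286, the smallest this design can give), and limma's adjusted p over all gene bodies was 0.524. The gene body had 1208 to 2197 calls per sample, and only 1.76% of all covered gene bodies had a lower mean level. By the bisulfite conversion rates that the paper reports, the share of unconverted cytosines is larger than these levels. Whether conversion differed between samples was not tested.

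*Wt1*, a zinc finger factor that Sertoli cells need to keep their identity, had a long unmethylated start and a methylated end. Its 5 stretches of cytosines from -1543 to 8205 bases relative to the start averaged 1.68% to 8.05%, and the 5 stretches from 17385 bases to the last exon averaged 58.4% to 86.0%. Over all genes the median level between 5 and 10 kb from the start was 79.8%, against 4.45% in *Wt1*. The promoter, whose 26 covered cytosines also lie in the antisense gene *Wt1os*, stood at 0.479% to 0.665% in the control samples. In the arsenic samples it stood at 6.08%, 4.19%, 0.385% and 0.452%. Arsenic samples 1 and 2 were thus above and samples 3 and 4 below all control samples, and the exact permutation p was 0.429. In samples 1 and 2 the methylated reads lay mostly on the minus strand, where 13 of 14 cytosines had at least 1, and 24 of 392 and 28 of 605 calls in all were methylated (6.12% and 4.63%). No cytosine of that strand had over 2 methylated reads in sample 1 or over 8 in sample 2, and the number of molecules behind these calls is not known. The gene body averaged 14.6% ± 0.947 and 15.3% ± 0.767 (exact permutation p = 0.371).

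*Gata4*, a zinc finger factor of both cell types, showed the same kind of start, with 4 stretches from -1415 to 4303 bases at 0.990% to 2.01%. Beyond it the large intron 2 did not reach the level of most gene bodies. Its stretches from 11319 bases on averaged 16.6% to 78.1%, with neighbouring stretches at 78.1% and 32.6% (at 19163 and 19606 bases), and the gene's level between 10 and 20 kb was 34.1% against a median of 80.2% over all genes. The promoter averaged 0.865% ± 0.546 and 1.11% ± 0.914 (exact permutation p = 0.714). The gene body stood at 25.3%, 25.4%, 23.4% and 22.5% in the control group and at 22.7%, 21.3%, 21.9% and 23.3% in the arsenic group. The arsenic mean was lower by 1.81 points, the groups overlapped, and the exact permutation p was 0.114. With cytosines weighted by coverage the difference was only -0.481 points (17.4% and 16.9%).

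*Nr5a1*, the nuclear receptor that drives steroid enzyme genes and the early gonad, had a nearly unmethylated promoter although it holds few CpGs. It stood at 1.67%, 0%, 12.8% and 2.38% in the control samples and at 3.39%, 2.17%, 0% and 6.21% in the arsenic samples, over 9 cytosines. Control sample 3 was the highest and the groups overlapped (exact permutation p = 0.83). Control sample 2 had 0 of 202 and arsenic sample 3 had 0 of 251 methylated calls, and with the 26 and 33 reads of the deepest cytosine these allow levels of up to 11.5% and 9.09%. The median over 628 promoters of like CpG number was 56.0%, of which 14.2% were lower than *Nr5a1*. In intron 1, 39 cytosines between 1887 and 2620 bases after the start averaged 1.34%, and the stretches from 8336 bases on averaged 23.6% to 88.2%. The gene body averaged 36.3% ± 1.24 and 36.6% ± 1.45 (exact permutation p = 0.743).

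**Figure D2:**
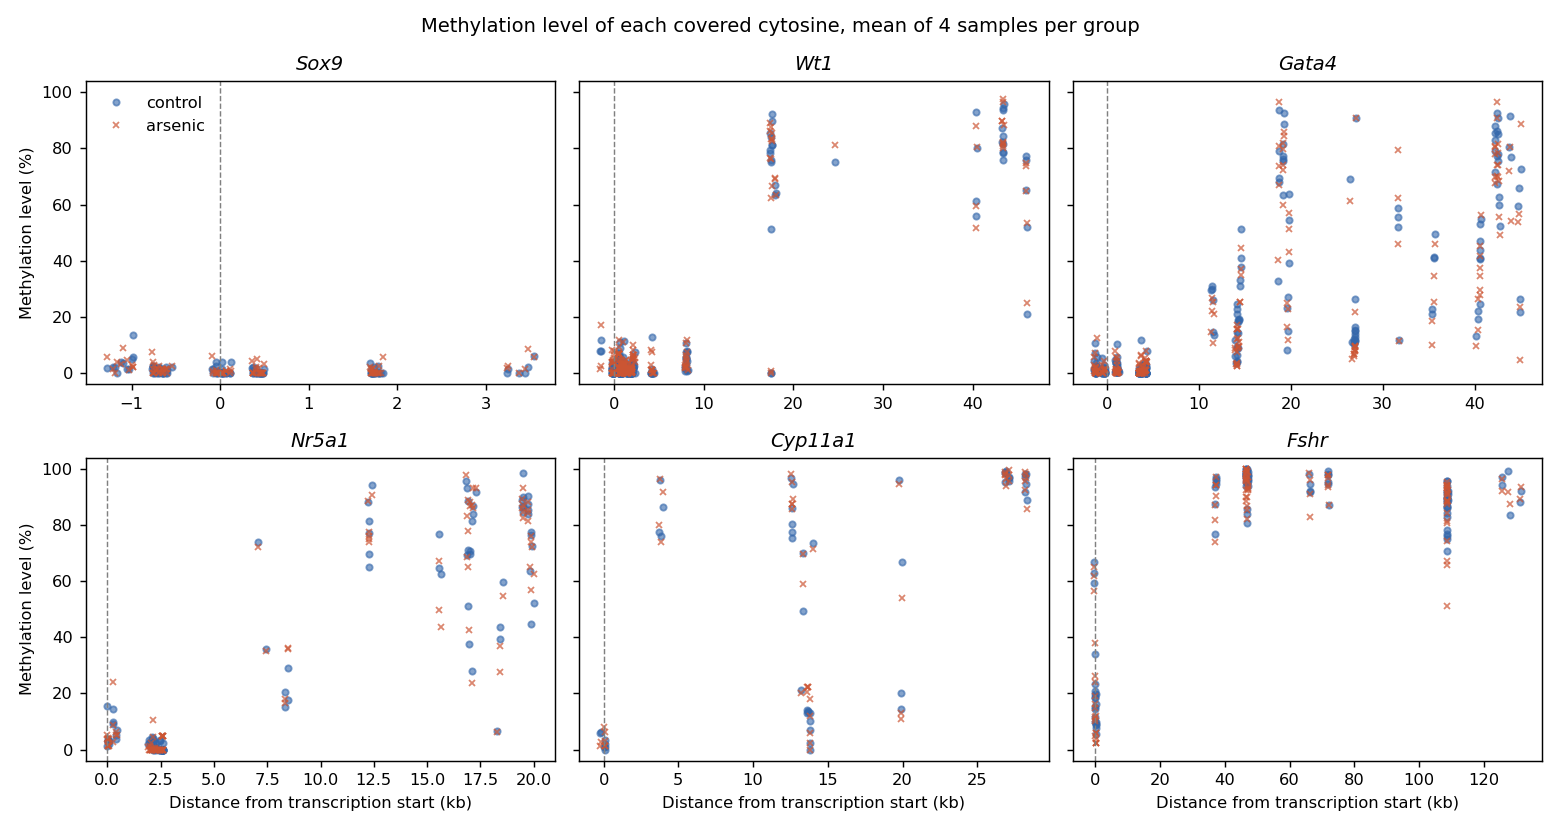
Methylation level (%) of each covered cytosine against its distance from the transcription start (kb, dashed line at the start) in 6 genes, as the mean of 4 control (circles) and 4 arsenic samples (crosses). *Sox9* stays below 10% in the mean over 8 samples at each of its 102 cytosines, *Wt1* rises after 8205 bases, and *Fshr* rises on both sides of its first exon.

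*Fshr*, the receptor for follicle-stimulating hormone, was the only 1 of the 6 covered promoters that was neither almost unmethylated nor fully methylated. Its 13 cytosines averaged 28.0%, 28.9%, 31.4% and 27.2% in the control samples and 19.8%, 31.0%, 33.0% and 26.7% in the arsenic samples. The arsenic samples held both the lowest and the highest value, and the means of 28.9% ± 1.81 and 27.6% ± 5.84 did not differ beyond this spread (exact permutation p = 0.743). The median over 554 promoters of like CpG number was 57.5%, with quartiles of 16.4% and 80.8%. The level rose with distance upstream. The 17 cytosines from 129 bases before to 189 bases after the start averaged 13.9%, and 3 cytosines at -377 to -365 bases averaged 62.1%. In the printed promoter the CpG within the letters CACGTG, an E box that begins 61 bases upstream of the start (a site singled out after its values were seen), averaged 18.7% ± 5.90 and 24.2% ± 3.10 on the strand of the gene, with at least 51 reads per sample. CACGTG is found on both strands at once, and 7.15% of 32851 promoter windows of 300 bases hold it. The letters CAAGGTCA, bound by Nr5a1, and AGATAA, bound by Gata factors, were searched on both strands. They were in none of the 4 windows found for *Insl3*, *Fshr* and *Cyp11a1*, which has more than 1 window, and in 1.56% and 11.2% of all windows. Only these exact letters were searched, so the absence of sites for these factors does not follow. The *Fshr* gene body was highly methylated, at 85.1% ± 1.58 and 83.4% ± 0.403 (exact permutation p = 0.0857), with 6 intron stretches at 86.3% to 96.8%.

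*Amh*, the hormone that removes the Müllerian ducts, had no covered cytosine in its promoter, which holds 9 CpGs. All 41 covered cytosines of its gene body lay in exon 5, and they averaged 0.511%, 1.52%, 0.974% and 0.822% in the control samples and 0.993%, 4.82%, 0.667% and 0.398% in the arsenic samples. The groups overlapped (exact permutation p = 0.800), and arsenic sample 2 stood apart. In it 64 of 1133 calls were methylated (5.65%), all on the plus strand, where 21 of 23 cytosines had at least 1 methylated read and none had over 4, of 20 to 42 reads. The number of molecules behind these calls is not known either. Over all genes the median level between 2 and 5 kb from the start was 75.5%, against 1.19% for *Amh*. Upstream, from 2000 to 1000 bases before the start, 4 cytosines that lie within the splicing gene *Sf3a2* stood at 62.7%, 65.3%, 63.9% and 70.2% in the control group and at 53.6%, 61.7%, 55.4% and 56.5% in the arsenic group. The arsenic samples were all lower, with a difference of -8.73 points (65.6% ± 3.30 and 56.8% ± 3.5, exact permutation p = 0.0286). The adjusted p of limma over 3905 upstream windows was 0.900, and the calls per sample numbered only 55 to 114. Fewer than 3 of the 4 cytosines had a coverage of at least 20 in every sample.

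*Star*, which carries cholesterol into the mitochondrion, had no covered cytosine in its promoter (6 CpGs and none of the CCGG sites that the RRBS enzyme cuts). Its gene body was covered at 11 cytosines, 10 of them in the 3′ untranslated region. It stood at 77.1%, 76.7%, 75.4% and 78.5% in the control samples and at 75.6%, 73.9%, 73.6% and 72.3% in the arsenic samples. The highest arsenic sample lay just above the lowest control sample. The mean was lower by 3.07 points in the arsenic group (76.9% ± 1.29 against 73.9% ± 1.36), with an exact permutation p of 0.0571 and an adjusted p of limma of 0.775 over 19047 gene bodies.

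*Cyp11a1*, the enzyme that cuts the side chain of cholesterol, was nearly unmethylated at the promoter of its outermost start. The level was 2.83% ± 2.23 and 2.90% ± 2.48 (exact permutation p = 0.943) over 5 cytosines and 52 to 217 calls per sample. Control sample 4 had 0 of 90 and arsenic sample 2 had 0 of 100 methylated calls, and with the 18 and 20 reads of the deepest cytosine these allow levels of up to 16.7% and 15%. Like promoters (n = 1943) had a median of 4.13%. A second promoter window of *Cyp11a1* (chr9:58014702-58015001) lies within the gene body as read here, and its 1 CpG was not covered. The promoter of that second start was thus not read. Within the gene the level was not even. Intron 1 averaged 84.8%, a stretch of intron 2 between 13595 and 14033 bases averaged 17.9%, and the last stretches averaged 97.4% and 94.7%. The gene body averaged 62.8% ± 0.850 and 64.2% ± 1.75 (exact permutation p = 0.200).

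*Cyp17a1*, the hydroxylase and lyase of androgen synthesis, had 9 promoter CpGs, no CCGG site there and no covered promoter cytosine. Its gene body averaged 53.3% ± 2.47 and 52.9% ± 3.92 (exact permutation p = 0.857) over 20 cytosines, of which 10 also lie in *Gm41857*. Exon 2 with intron 1 averaged 46.1% and exon 8 averaged 60.1%. *Insl3*, the hormone of testis descent, had 31 promoter CpGs of which none was covered. Its 7 covered cytosines lie in intron 1 and also inside *Jak3*, and they ranged from 6.48% to 23.8% in the control group and from 9.77% to 16.3% in the arsenic group (exact permutation p = 1.00).

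**Figure D3:**
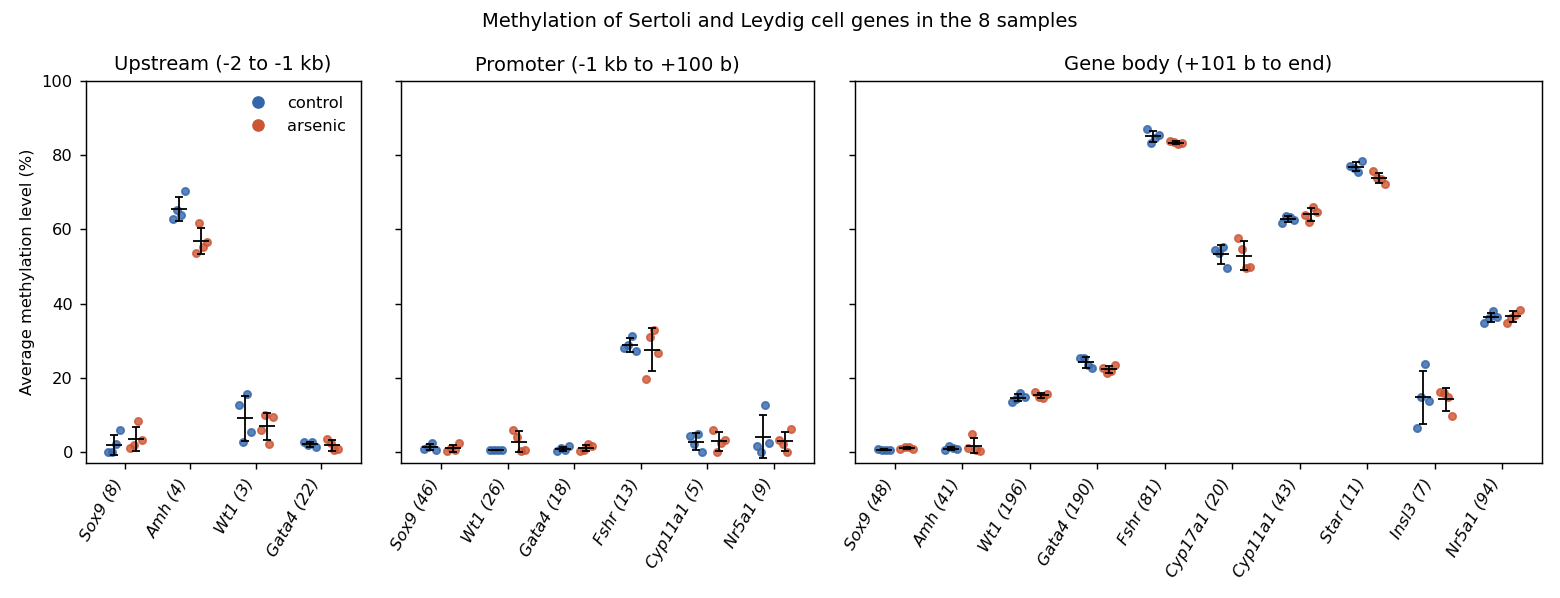
Average methylation level (%) of the upstream window, promoter and gene body of each covered gene in 4 control (blue) and 4 arsenic (red) samples, with mean ± SD (black bars) and the number of cytosines in brackets. The arsenic samples lie apart from the control samples only in the *Amh* upstream window (-8.73 points) and the *Sox9* gene body (higher by 0.496 points).

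To ask whether the arsenic group differed at these genes, limma was run over each kind of region of all genes. None of the 6 promoters, 4 upstream windows and 10 gene bodies reached an adjusted p of 0.05 or less, and limma called 0 of all promoters, upstream windows and gene bodies, where 5.52%, 4.81% and 6.04% had an unadjusted p under 0.05. The unadjusted p of limma was under 0.05 in 3 of these 20 regions, the *Sox9* gene body, the *Amh* upstream window and the *Star* gene body. The groups did not overlap in 0 of the 6 promoters, against 2.97% of all promoters (1.69% lower and 1.28% higher in the arsenic group). They did not overlap in 1 of the 4 upstream windows, a lower one, against 3.07% of all (2.0% lower, 1.08% higher), and in 1 of the 10 gene bodies, a higher one, against 3.9% of all (2.98% lower, 0.914% higher). The arsenic mean was lower in 3 of 6 promoters, 3 of 4 upstream windows and 5 of 10 gene bodies, with median differences of -0.101, -1.24 and -0.0621 points. Over all genes 52.3% of promoters, 54.1% of upstream windows and 61.4% of gene bodies were lower, with median differences of -0.0542, -0.147 and -0.267 points.

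Among the 885 cytosines 2 were DMCs by the likelihood-ratio test of logistic regression on pooled reads (q of at most 0.01 and at least 10 points), 1 hypoDMC and 1 hyperDMC. This is 0.226%, against 0.552% of all CpGs (0.323% hypoDMCs and 0.228% hyperDMCs). Both lie among the 263 cytosines of the genes with a mean level of 10% to 90%, of which they are 0.760%, near the 0.916% of all CpGs in that range. The hypoDMC of *Gata4*, 11319 bases after the start in intron 2, stood at 36.9%, 21.7%, 40.3% and 19.7% in the control group and at 13.5%, 10.9%, 24.1% and 9.66% in the arsenic group. Arsenic sample 3 lay above control samples 2 and 4, so the groups overlapped. The means were 29.7% ± 10.5 and 14.5% ± 6.57 and the pooled level was lower by 15.9 points (likelihood-ratio q = 8.57e-06), on 108 to 145 reads per sample. The q stayed at or under 0.00390 when any 1 sample was left out. The stretch of 6 cytosines that holds it differed by only -4.11 points, with overlapping groups and SDs of 7.69 and 7.76.

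The hyperDMC of *Cyp11a1*, 12619 bases after the start in intron 2, stood at 78.6%, 66.7%, 94.6% and 70.6% in the control group and at 100%, 100%, 87.5% and 93.5% in the arsenic group. Control sample 3 lay above 2 of the arsenic samples. The pooled level was higher by 17.6 points (q = 0.00792) on 16 to 37 reads per sample. The call was lost on leaving out any 1 of control samples 1, 2 and 4 or arsenic samples 1, 2 and 4, with q from 0.0119 to 0.0711, and also with both strands summed, where the difference was 9.46 points. The stretch of 6 cytosines that holds the site stood at 87.7%, 84.3%, 85.8% and 82.7% in the control samples and at 91.3%, 86.1%, 92.6% and 92.5% in the arsenic samples. It was higher by 5.45 points in the arsenic mean, and only arsenic sample 2 lay below a control sample (exact permutation p = 0.0571, unadjusted limma p = 0.0155, adjusted 0.916). These likelihood-ratio q-values do not take in the spread between samples, and they treat each read as a molecule of its own. Every count was also halved, to allow for each read being counted 2 times, a setting chosen after the coverage was seen. It does not allow for further copies of a molecule. Both calls were then lost (q = 0.101 for *Gata4* and 0.624 for *Cyp11a1*), and 8 hypoDMCs and 7 hyperDMCs were left in the whole table. At both sites limma, which takes in the spread between samples, gave an adjusted p of 0.972. It called 0 of all 2130064 CpGs, of which 5.11% had an unadjusted p under 0.05.

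The groups did not overlap at 15 of the 885 cytosines (1.69%, against 2.1% of all CpGs), with the arsenic samples lower at 12 (1.21% of all CpGs) and higher at 3 (0.892% of all). *Gata4* held 7 of them and *Fshr* 4. The largest difference was at a CpG of *Gata4* intron 6 (position 63201308), at 72.7% to 82.4% in the control samples and 62.5%, 47.1%, 35.3% and 72.2% in the arsenic samples, on 12 to 36 reads per sample. A CpG of *Fshr* intron 1 (position 89163774) averaged 87.4% ± 7.03 and 74.0% ± 4.87, and 1 of the *Cyp17a1* 3′ untranslated region (46667310) averaged 71.7% ± 1.77 and 59.1% ± 6.31. The other 3 named sites were in *Star* (25814873, 92.8% and 85.9%), *Nr5a1* (38695045, 98.6% and 93.2%) and *Sox9* (112785683, 1.99% and 8.51%). None of these 6 was a DMC, and their likelihood-ratio q-values ranged from 0.0272 to 0.276.

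**Figure D4:**
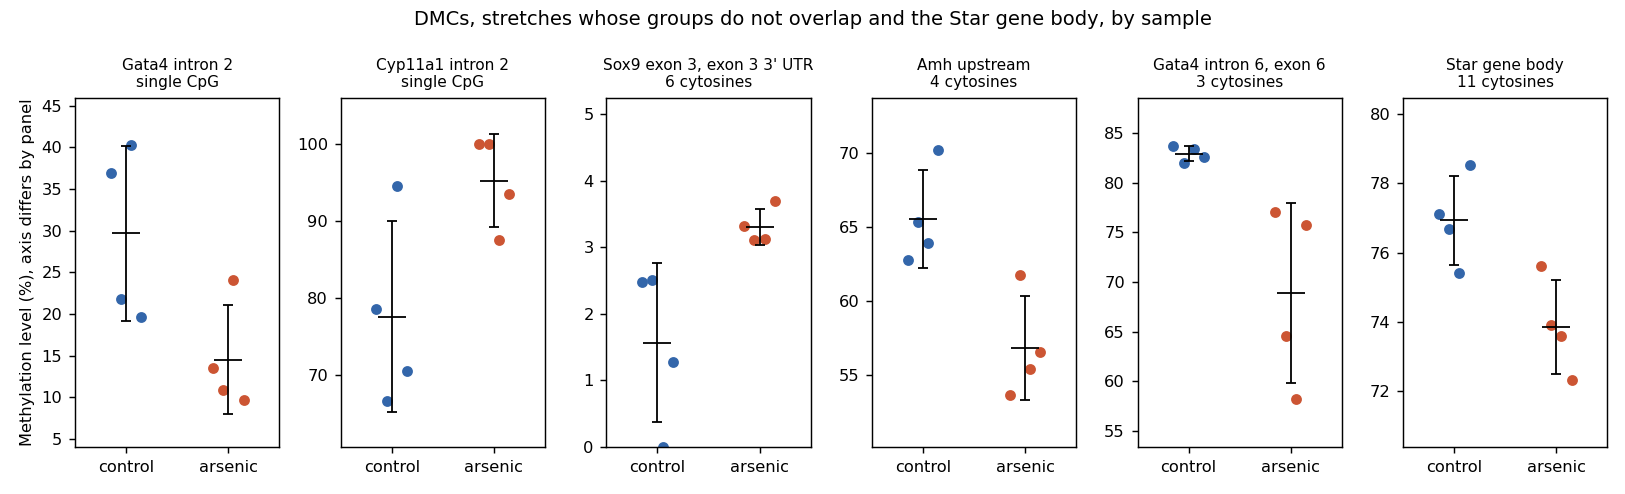
Methylation level (%) in each of 4 control (blue) and 4 arsenic (red) samples, with mean ± SD (black), at the 2 DMCs, at the 3 stretches whose groups did not overlap and over the *Star* gene body, where the vertical axes differ and most do not start at 0. At the *Gata4* and *Cyp11a1* DMCs the groups overlap, and at the 3 stretches they do not.

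Cytosines no more than 200 bases apart were also averaged as stretches, a step added after levels had been seen. Of 63 stretches with at least 3 cytosines 19 were below 10%, 13 above 80% and 31 between. The groups did not overlap in 3 (4.76%, against 3.14% of 188877 stretches of the genome), lower in 2 (2.08% of all) and higher in 1 (1.06% of all), and the lowest adjusted p of limma was 0.916, while 3 had an unadjusted p under 0.05 (5.4% of all), in *Amh*, *Gata4* and *Cyp11a1*. The 3 stretches whose groups did not overlap were the *Amh* upstream stretch, a stretch of 6 cytosines in *Sox9* exon 3 (1.57% ± 1.19 and 3.31% ± 0.271) and a stretch of 3 cytosines in exon 6 and intron 6 of *Gata4*. The last stood at 83.7%, 82.0%, 83.4% and 82.6% in the control samples and at 77.1%, 64.6%, 58.2% and 75.7% in the arsenic samples. The control samples lay within 2 points of each other and the arsenic samples spread widely below them, with a difference of -14.0 points (exact permutation p = 0.0286). The *Gata4* stretch holds the intron 6 CpG given above. The *Amh* stretch is the same 4 cytosines as the *Amh* upstream window. The *Sox9* stretch is part of the *Sox9* gene body and holds the *Sox9* CpG named above. For each of these genes these are therefore not separate results. The arsenic mean was lower in 36 of the 63 stretches, against 56.1% of all stretches of the genome, and by gene this ranged from 2 of 10 in *Wt1* to all 8 in *Fshr*, a description with no test.

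**Figure D5:**
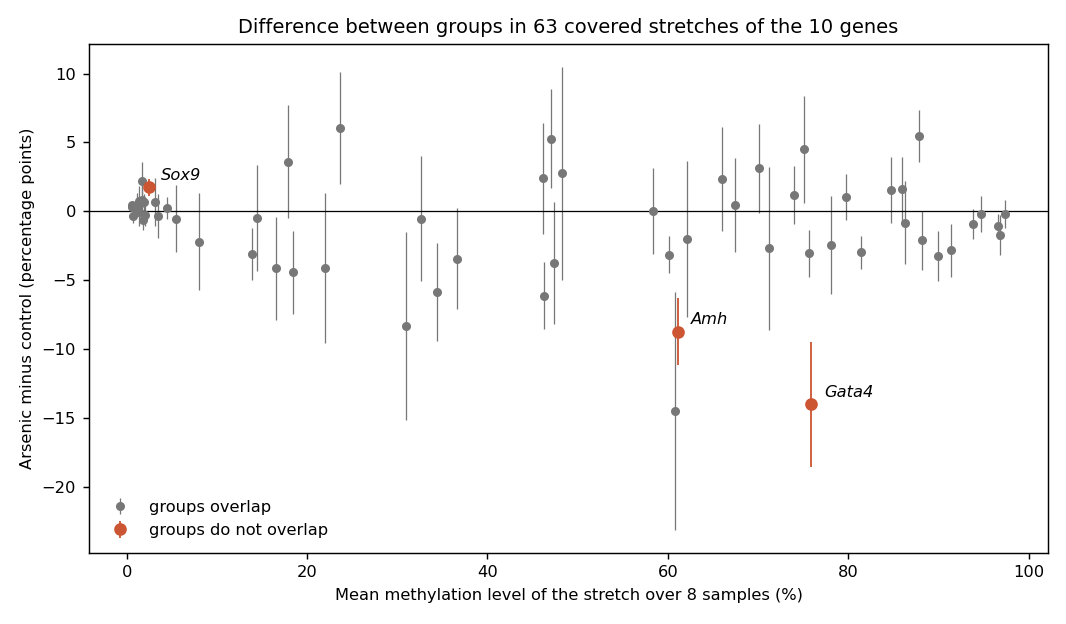
Difference in mean level (arsenic minus control, percentage points) of 63 stretches against their mean level (%), with bars of 1 standard error of the difference. The 3 stretches whose groups do not overlap (red) lie at 1.74, -8.73 and -14.0 points, and the stretches below 10% stay near 0.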

How the data were processed

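RRBS of 8 pooled samples was analysed. Per the labels the authors trimmed reads with Trim Galore 0.6.5, mapped them to mm10 with Bismark 0.22.3 and joined the samples with methylKit 1.22.0. The table deposited by the authors holds counts per cytosine, strands apart: coverage, reads with C and reads with T, not normalized, with a coverage of at least 10 in every sample.

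Levels were unweighted means over cytosines in percent, computed with Python 3.11.15, numpy 2.4.6, scipy 1.17.1 and pandas 2.3.3. Regions of all genes with at least 3 cytosines were compared with limma 3.58.1 (R 4.3.3) on log2((level + 0.5)/(100 - level + 0.5)) with Benjamini-Hochberg adjustment over all regions of a kind, and single levels with two-sided exact permutation tests over 70 assignments, whose smallest p is 0.0286. DMCs were called with a likelihood-ratio test of the summed counts, the form that methylKit's logistic regression takes for 2 groups. methylKit itself was not run. Scripts were tested on simulated data. Named CpGs were all DMCs and, per gene, the CpG with the largest difference among those whose groups did not overlap. The *Fshr* E box CpG was added after its values were seen. Of the marker lists the lowest and the highest covered promoters were named by rule, and *Ddx4* was added after its value was seen. The members, marker lists and tests were chosen with earlier results of these data known. Alternatives were other coverage minimums, weighting, strands summed, each sample left out, other tests and, chosen after seeing the data, leaving out cytosines of even coverage or halving every count. No reads were realigned, and gene expression was not analysed here.

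Calls summed over a region count a read at each cytosine it crosses, so no interval is given for them. Limits from a count of 0 (3 counts of the reads at the deepest cytosine of the region) cover counting error only, since reads were not marked by molecule. The median coverage on the 10 genes was 26 to 37 reads per cytosine and sample.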

Additional observations from a re-analysis of the deposited data

Results flagged for a closer look

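In the *Amh* gene body arsenic sample 2 stood at 4.82%, far from the other 3 arsenic samples at 0.398% to 0.993%. Its gap to the nearest sample was 0.866 of the range of the group, above Dixon's limit at 95% for 4 samples. Chance alone passes this limit in about 2 of the 40 groups of samples examined, and 1 did.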

How the results depend on the processing

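Limma called none of the promoters, upstream windows and gene bodies of all genes, so its counts of 0 for the 10 genes say nothing about stability. The arsenic mean stayed lower in the *Amh* upstream window (-10.4 to -7.17 points) and the *Star* gene body (-3.66 to -2.54) and higher in the *Sox9* gene body (0.429 to 0.550) when each sample was left out in turn. The *Sox9* levels lie below the share of unconverted cytosines given by the conversion rates of the paper. Of the 20 differences, 10 changed sign for some sample left out, with ranges of -0.712 to 0.0707 (*Sox9*), -0.0965 to 0.536 (*Gata4*), -3.04 to 1.36 (*Fshr*), -0.962 to 1.04 (*Cyp11a1*) and -2.67 to 1.59 (*Nr5a1*) for promoters, -0.839 to 0.174 for the *Gata4* upstream window, and -0.271 to 1.20 (*Amh*), -1.96 to 0.748 (*Cyp17a1*), -3.26 to 2.50 (*Insl3*) and -0.315 to 0.850 (*Nr5a1*) for gene bodies. The *Amh* gene body changed sign without arsenic sample 2.

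With coverage-weighted means the differences changed sign to 0.368 (*Fshr* promoter), -0.0384 (*Cyp11a1* promoter), -0.462 (*Cyp11a1* gene body), 0.173 (*Insl3* gene body) and -1.48 (*Nr5a1* gene body), and that of the *Gata4* gene body shrank to -0.481. At a coverage of at least 20 they became -1.05 (*Cyp11a1*) and -1.36 (*Nr5a1* gene body), and at 30 they became 3.27 (*Fshr* promoter), -1.38 (*Cyp11a1*) and -1.95 (*Nr5a1*). With strands summed the *Nr5a1* gene body became -0.0176. The cause was not tested.

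Of regions whose groups did not overlap, the lower upstream window (*Amh*) was lost (0) at a coverage of at least 20 or 30, and the higher gene body (*Sox9*) was lost (0) at 30, since fewer than 3 cytosines were left in each. With strands summed 1 gene body was lower. On leaving out samples 0 to 1 gene bodies were lower and 1 to 2 higher. Groups with fewer samples separate more easily, and no share over all gene bodies is at hand for these settings. These counts of gene bodies are therefore not a result about the genes. HypoDMCs numbered 1 to 2 and hyperDMCs 0 to 2 when each sample was left out. All CpGs then gave 0.303% to 0.363% hypoDMCs and 0.226% to 0.255% hyperDMCs. At 20 or 30 reads and with strands summed hyperDMCs numbered 0, where all CpGs gave 0.289%, 0.324% and 0.169%. With a difference of at least 20 points both numbered 0, where all CpGs gave 0.0861% hypoDMCs and 0.0614% hyperDMCs. At such shares counts of 0 to 2 are not a result about these genes. With overdispersion scaling and an F test, or limma per CpG, both numbered 0. These 2 tests called 0 CpGs in the whole table, so these counts of 0 say nothing about the stability of the 2 sites.

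Replicate numbers occur in both groups, and the labels do not say whether they pair the samples. Same-numbered samples did not deviate together (correlations -7.81e-05 to 0.00178), and differently numbered samples gave -0.00234 to 0.00245. The correlations thus gave no sign of a pairing, but values this near 0 throughout cannot exclude one. With the replicate block 1 hypoDMC and 1 hyperDMC were called among the 885 cytosines, where all CpGs gave 0.223% and 0.154%. Of the promoters, upstream windows and gene bodies of the 10 genes 0 were called.

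RRBS covered 4.18% (*Fshr*) to 25.5% (*Amh*) of the CpGs of the gene bodies, and 4 promoters not at all. Of the 885 cytosines 32 had an even coverage in all 8 samples (3.62%, against 2.93% of all CpGs and 0.391% if even and odd were equally likely and independent). Coverage doubled within fragments, for example from 20 to 42 reads in *Amh* exon 5 of arsenic sample 2. Whether both reads of a pair were counted was not tested. Reads counted more than once would make the likelihood-ratio q-values too small and the limits from a count of 0 too low, and with every count halved hypoDMCs and hyperDMCs both numbered 0. Without those 32 cytosines no direction and no call changed.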
